A study of Mus musculus with 3 samples.

Results

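The endothelin system is the set of peptides, receptors and converting enzyme through which vessels make and read endothelin, one of the strongest vasoconstrictors known. Its 6 genes, Edn1, Edn2, Edn3, Ednra, Ednrb and Ece1, were read across 3 one-colour Agilent arrays of mouse cells through the RefSeq accession of each non-control probe. They were covered by 7 of the 39429 probes and 16 spots on each array, out of 20886 genes named in this way. The cells were primary cultures labelled as cavernous endothelial cells, from the erectile tissue of C57BL/6 mice. All were grown in M199 medium with heat-inactivated serum, penicillin and streptomycin, heparin and vascular endothelial growth factor A, and were kept for 48 h in one of 3 conditions. The HG+DKK2 cells were in high glucose (30 mmol as labelled) with DKK2, the HG cells were in high glucose alone, and the NG cells were in normal glucose (5 mmol). DKK2, or Dickkopf 2, is a secreted protein that modulates Wnt signalling; the labels name no dose. Each array held a pool of RNA from 3 samples, so each condition is 1 array, no difference has a replicate check, and no p-value is given.

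In a vessel, endothelial cells release big endothelin as a precursor, and the membrane protease ECE1 cuts it to the active peptide. The peptide acts on the type A receptor of smooth muscle, encoded by Ednra, to contract it. The type B receptor, encoded by Ednrb, sits on endothelial cells, where it drives nitric oxide and prostacyclin release and clears the peptide, and it also occurs on some smooth muscle, on glia and on melanocytes. In the corpus cavernosum endothelin holds the smooth muscle contracted and so opposes erection.

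The promoters of the genes that carry the main contrast are shown first. Ednrb and Ednra are the receptor pair that differed in opposite directions with DKK2, and Edn1 is the main endothelial ligand. Each sequence is the 250 bases before the annotated start, 5′ to 3′ along the gene, from RefSeq with build GRCm38.p6. Capitals mark CCAAT or its reverse complement ATTGG. The Ednrb window is chr14:103843702-103843951 on the minus strand, the Ednra window is chr8:77724453-77724702 on the minus strand, and the Edn1 window is chr13:42301226-42301475 on the plus strand.
Ednrb: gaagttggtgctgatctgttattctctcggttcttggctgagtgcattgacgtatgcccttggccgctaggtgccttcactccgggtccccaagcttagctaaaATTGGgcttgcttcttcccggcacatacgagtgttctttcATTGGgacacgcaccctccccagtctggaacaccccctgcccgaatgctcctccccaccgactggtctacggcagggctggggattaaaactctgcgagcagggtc
Ednra: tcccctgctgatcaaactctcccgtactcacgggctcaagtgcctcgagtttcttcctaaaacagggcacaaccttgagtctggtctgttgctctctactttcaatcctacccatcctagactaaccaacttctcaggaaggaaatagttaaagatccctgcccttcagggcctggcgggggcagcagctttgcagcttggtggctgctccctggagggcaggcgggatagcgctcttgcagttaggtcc
Edn1: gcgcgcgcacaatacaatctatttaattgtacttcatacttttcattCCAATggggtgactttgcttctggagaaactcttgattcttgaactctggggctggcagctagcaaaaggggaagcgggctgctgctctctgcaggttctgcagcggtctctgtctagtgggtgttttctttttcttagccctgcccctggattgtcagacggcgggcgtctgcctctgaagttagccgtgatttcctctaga

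The Ednrb window held 2 CCAAT matches, whose first bases lay at -146 and -106 from the start and which read on the opposite strand. The Edn1 window held 1, at -203 on its own strand, and the Ednra window held none. CCAAT was in 33.9% of all 32851 windows of this length, so a match in a window is common. GC content was 56.8% for Ednrb, 54.8% for Ednra and 50.4% for Edn1, against a median of 52.4% over all windows. Both strands of the 9 endothelin windows, of which Ece1 has 4, were also searched for other motifs. Some of the Ece1 windows overlap, so the 9 are not all separate. TATAAA, the TATA box, was in 0 of the 9 and in 12.4% of all windows. The GC box GGGCGG was in 2 of the 9 and in 32.7% of all. The Wnt-type motif CTTTGAA was in 2 of the 9 and in 4.46% of all, and its variant CTTTGAT was in 0 of the 9 and in 3.21% of all. The CTTTGAA matches were in the Edn3 window and in 1 Ece1 window, not in those of Ednrb, Ednra or Edn1. The AP-1 motif TGANTCA was in 0 of the 9 and in 6.75% of all, and the E-box CACGTG was in 1 of the 9 and in 6.02% of all. These are matches of letters in a window, not binding sites.

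Signals below are the scanner's processed intensities, and a scaled signal is that intensity as a percent of the array's own 75th percentile over probes. That percentile was 2417 in HG+DKK2, 2380 in HG and 1201 in NG, so the NG array was the dimmer one, and 83.9%, 84.7% and 76.6% of probes were well above background in that order. Scaled signals are compared between arrays for 1 probe, or for the sum over 1 marker list. They give no amounts that can be compared between probes or between lists. A gene's part of such a sum shows how far its probe's brightness sets the sum, not its share of the RNA. A difference is a log2 difference of scaled signals, with an error SD from the scanner's error model. That SD is for 1 spot of the probe on each array and covers technical error only. "Higher" and "lower" in a count mean at least 2-fold. All 3 arrays share 1 slide, so position on the slide and condition cannot be told apart, and fewer cells of a type cannot be told apart from less RNA per cell. Beside the labelled cell type, 15 endothelial markers were read, of which 14 were well above background in HG+DKK2, 15 in HG and 13 in NG. Erg was not above it in HG+DKK2 and NG, nor Emcn in NG. Since 83.9%, 84.7% and 76.6% of all probes passed too, such counts cannot test the label. Markers of other cells were present beside them: all 12 fibroblast markers and all 9 macrophage markers on the array were above background in each culture, and 11, 12 and 11 of 12 smooth muscle markers were in HG+DKK2, HG and NG in that order.

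**Figure D1:**
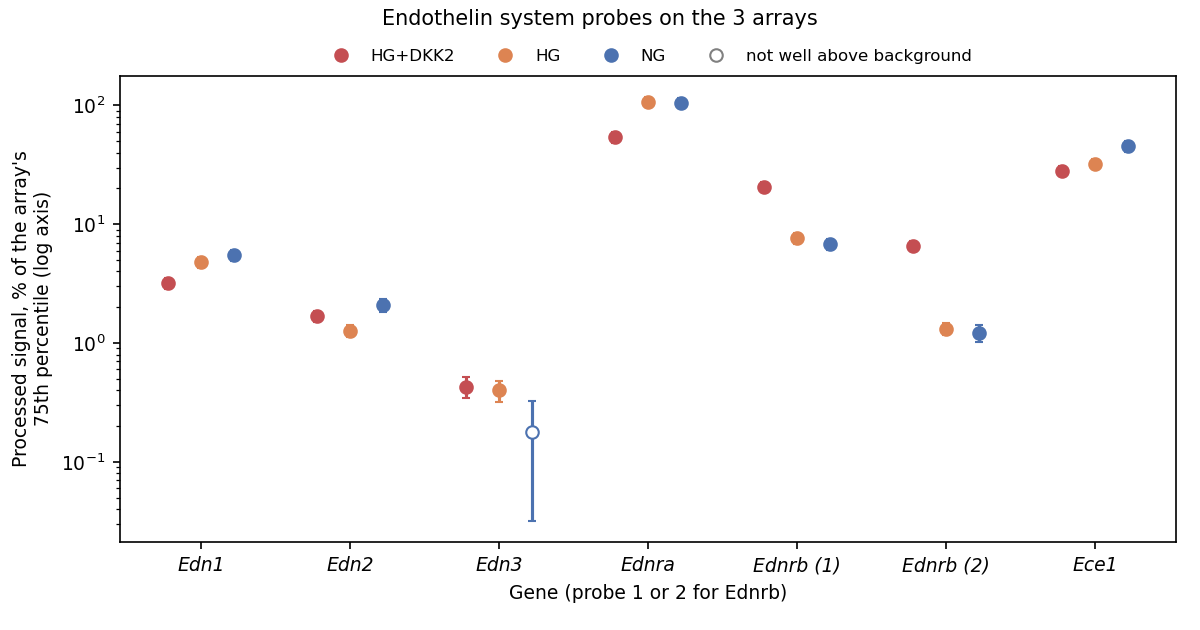
Scaled signal of each endothelin probe (percent of the array's 75th percentile, log axis) in HG+DKK2, HG and NG, 1 point per array with the scanner's error as a bar; the open point, Edn3 in NG, is not well above background. Ednrb (1) is probe A_52_P577662 and Ednrb (2) is A_55_P2089710. Both Ednrb probes stand apart in HG+DKK2, at 20.7% and 6.62%, and Ednra is lower there, at 53.8%. Heights of different probes cannot be compared.

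Edn1, which encodes endothelin-1, had scaled signals of 3.19% in HG+DKK2, 4.78% in HG and 5.50% in NG. The DKK2 culture was thus the lowest for the ligand and normal glucose the highest, but no step between them reached 2-fold. The difference was -0.58 (error SD 0.21) between HG+DKK2 and HG, -0.20 (0.21) between HG and NG, and -0.78 (0.21) between HG+DKK2 and NG. The glucose difference was thus within the scanner's error for 1 spot. That error is not the error of the Edn1 value, which is a mean over 9 or 10 spots. Across genes, 24.6% had a larger absolute difference than Edn1 between HG+DKK2 and HG.

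The Edn1 probe was printed at 10 spots of each array, which gives a second view of its technical error. In HG+DKK2 its 10 spots had a lowest, median and highest signal of 63.6, 76.6 and 95.3, with an SD of 0.18 on the log2 scale. In HG the 9 spots used had signals of 97.9, 117.1 and 127.1 by the same measures, with an SD of 0.11, and the spot left out by the scanner's outlier flag read 91.67. In NG the 10 spots had signals of 56.4, 67.9 and 73.6, with an SD of 0.13. Of 399 probes printed 10 times, 357 in HG+DKK2, 360 in HG and 334 in NG were well above background. On each array the Edn1 SD was above the median SD of those probes, which was 0.0807 in HG+DKK2, 0.0738 in HG and 0.0711 in NG. Those probes were of any brightness above background, and a set as dim as Edn1 was not compared.

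After scaling and set against each other by spot position, HG+DKK2 was below HG at 9 of 9 positions, by -0.67 to -0.44 with a median of -0.53. HG was below NG at 9 of 9 positions, by -0.32 to -0.05 with a median of -0.23. HG+DKK2 was below NG at 10 of 10 positions, by -0.95 to -0.55. The spots of 1 array share its RNA and its scaling, so they do not replicate the culture. Before scaling, the mean Edn1 signal was 77.2 in HG+DKK2, 113.7 in HG and 66.0 in NG, so the sign of the glucose difference comes with the division by each array's 75th percentile. Normexp background correction models the local background and adds an offset of 50 to every signal before scaling. It thus weighs most on dim probes. The offset was the same on each array, while the 75th percentile was 1201 in NG and 2380 in HG. With normexp the Edn1 difference was -1.06 between HG and NG, -0.31 between HG+DKK2 and HG, and -1.36 between HG+DKK2 and NG.

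**Figure D2:**
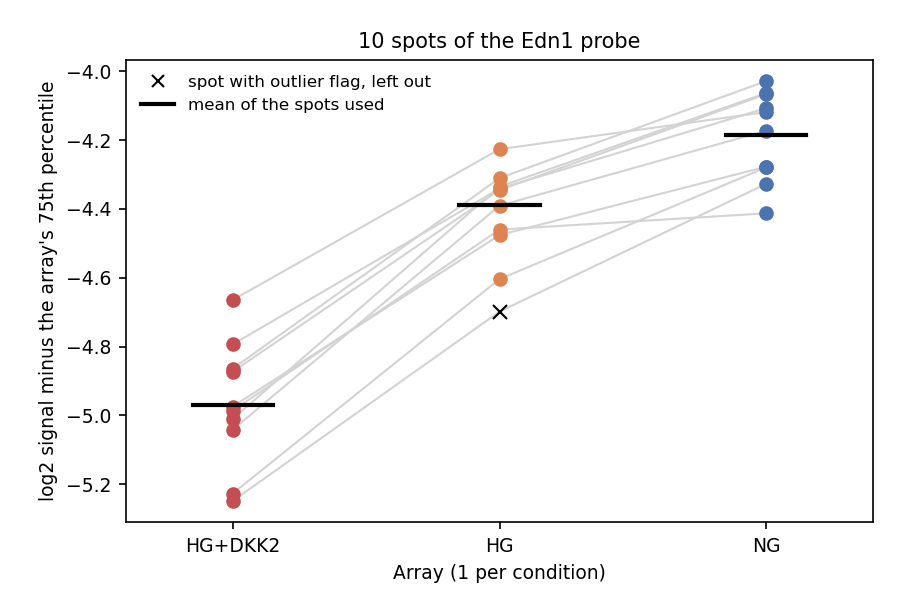
Each Edn1 spot as log2 of its signal over the array's 75th percentile, in HG+DKK2, HG and NG; points are spots, grey lines join the same spot position, the cross is the outlier spot left out and black bars are means of the spots used. The means are -4.97 in HG+DKK2, -4.39 in HG and -4.19 in NG, less than 2-fold apart.

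Edn2 and Edn3 encode the other endothelins. Edn2 had scaled signals of 1.69% in HG+DKK2, 1.27% in HG and 2.08% in NG, so HG was the lowest after scaling. Before scaling the signals were 40.8, 30.3 and 24.9 in that order, so NG was the lowest. Its differences were 0.41 (error SD 0.23) between HG+DKK2 and HG, -0.71 (0.24) between HG and NG, and -0.30 (0.24) between HG+DKK2 and NG, with -1.61 and -1.46 for the comparisons of HG and of HG+DKK2 with NG under normexp. Edn3, whose product binds the type B receptor with high affinity, was near the floor, with signals of 10.4 in HG+DKK2, 9.54 in HG and 2.14 in NG. It was not well above background in NG, and its difference between HG+DKK2 and HG was 0.10 with an error SD of 0.41. In the main setting no ligand gene was 2-fold apart where it was measured, while with normexp Edn1 and Edn2 passed 2-fold against NG.

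Ece1, which encodes the converting enzyme, had scaled signals of 28.0% in HG+DKK2, 32.1% in HG and 45.2% in NG. After scaling NG was thus the highest of the 3. Before scaling it was the lowest, with signals of 677.8 in HG+DKK2, 764.0 in HG and 543.3 in NG. The difference was -0.19 (error SD 0.20) between HG+DKK2 and HG, -0.49 (0.20) between HG and NG, and -0.69 (0.20) between HG+DKK2 and NG. Over the alternatives these lay between -0.23 and -0.11, between -0.58 and -0.45, and between -0.75 and -0.68 in that order.

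Ednrb was the member that differed most. Its probe A_52_P577662 had scaled signals of 20.7% in HG+DKK2, 7.64% in HG and 6.79% in NG, and its probe A_55_P2089710 had 6.62%, 1.32% and 1.22% in that order. On both probes HG+DKK2 stood apart and the other arrays lay close together after scaling. Before scaling, HG and NG read 181.9 and 81.5 on the first probe and 31.5 and 14.6 on the second. Between HG+DKK2 and HG the difference was 1.44 (error SD 0.20), or 2.71-fold, on the first probe and 2.32 (0.22), or 5.00-fold, on the second. Both lie many error SDs from 0, but the probes differ in size from each other by more than their errors.

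In the glucose comparison, HG against NG, the Ednrb probes differed by 0.17 (error SD 0.21) and 0.12 (0.28), less than the 2-fold rule and within the technical error. Against NG, the HG+DKK2 signal differed by 1.61 (0.21), or 3.05-fold, and by 2.44 (0.27), or 5.43-fold. Normexp changed the values that involve NG: HG+DKK2 against NG was 0.47 on the first probe and -0.16 on the second, and HG against NG was -0.74 and -1.42. The difference between HG+DKK2 and HG lay between 1.21 and 1.88 on the gene level over 8 alternatives, each at least 2-fold, and the second probe was at 1.26 with normexp. The call against HG thus held over those settings, while the call against NG was lost with normexp.

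Ednra had scaled signals of 53.8% in HG+DKK2, 107% in HG and 106% in NG. HG and NG lay close together and HG+DKK2 was the lowest. Before scaling the signals were 1300 in HG+DKK2, 2557 in HG and 1270 in NG, so the difference from NG comes with the scaling. The difference between HG+DKK2 and HG was -0.998 (error SD 0.20), so HG+DKK2 had 0.501 of the HG signal, just inside 2-fold. It was 0.02 (0.20) between HG and NG and -0.98 (0.20) between HG+DKK2 and NG. The call for Ednra between HG+DKK2 and HG rests on the setting, since over 9 alternatives the difference ran from -1.04 to -0.98 and passed 2-fold in 3 of them; against NG it passed 2-fold in 2.

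**Figure D3:**
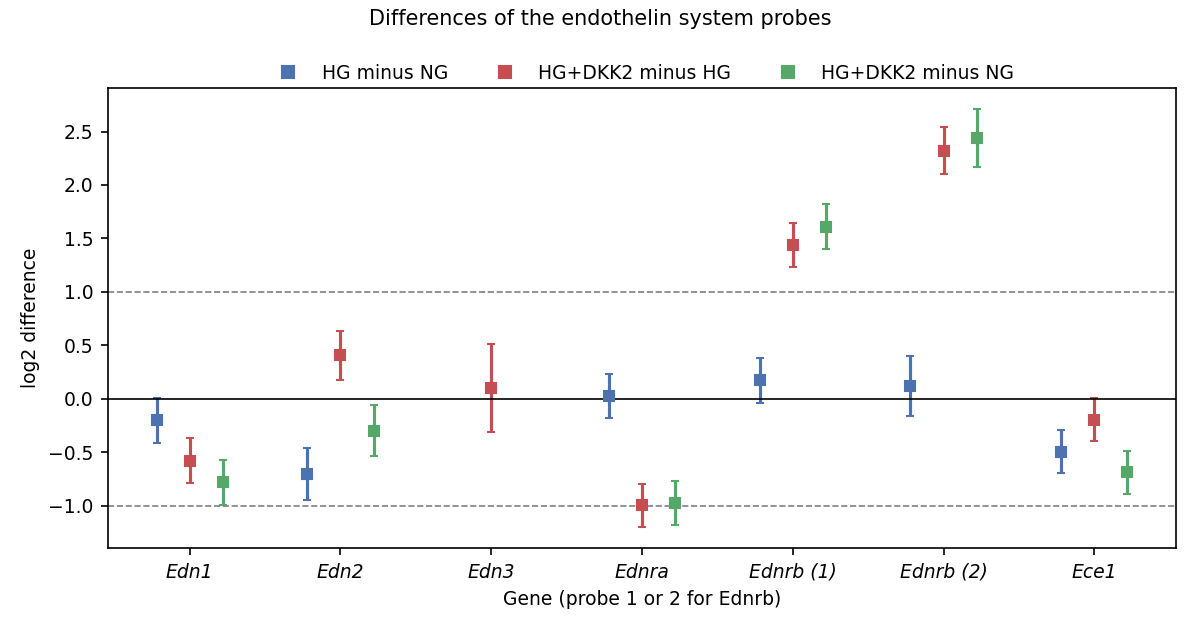
Log2 difference of each endothelin probe in the comparisons HG minus NG, HG+DKK2 minus HG and HG+DKK2 minus NG, with the scanner's error SD as bars and dashed lines at 2-fold. The receptor genes lie on opposite sides of 0 wherever HG+DKK2 is compared, at 1.44 and 2.32 for Ednrb and -0.998 for Ednra against HG.

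Since both receptors bind the same peptide, the shift of one against the other was taken as the Ednrb difference minus the Ednra difference, from which a single scaling factor per array cancels. For HG+DKK2 against HG it was 2.44 (error SD 0.29), or 5.42-fold, with the first Ednrb probe and 3.32 (0.30), or 9.99-fold, with the second. Against NG it was 2.59 (0.29) and 3.42 (0.34). For HG against NG it was 0.15 (0.29) and 0.10 (0.35), within the error. Background correction did move it: with normexp it was 2.19 and 2.25 against HG, 1.42 and 0.79 for HG+DKK2 against NG, and -0.78 and -1.46 for HG against NG. This is a change of a ratio between arrays and gives no ratio of receptor amounts within a culture.

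Against the whole array, the endothelin counts were small. In HG+DKK2 against HG, 1 of 6 measured members was higher (Ednrb) and 0 were lower, where 9.93% of 17825 genes were at least 2-fold apart, 5.08% higher and 4.85% lower. That count, 16.7% of the members, rests on 1 gene and does not set the members apart from all genes. Set against NG, HG+DKK2 had 1 of 5 members higher and 0 lower, where 20.8% of 16676 genes were apart, 10.5% higher and 10.4% lower, so that count is near the background. For HG against NG, 0 of 5 were apart, where 8.4% of 16771 genes were, 2.67% higher and 5.72% lower. With normexp the members' own calls against NG turned to 0 higher and 2 lower of 5, both for HG+DKK2 and for HG. The split of all genes for HG minus NG moved to 172 higher and 3932 lower of 16759, against 448 and 960 in the main setting. For HG+DKK2 against NG it moved to 938 and 4005 of 16665, against 1744 and 1727. The median difference of the measured members was -0.05, -0.20 and -0.69 for HG+DKK2 minus HG, HG minus NG and HG+DKK2 minus NG, and that of all genes was 0.08, 0.09 and 0.12. Single genes placed further out: Ednrb was 372nd from the highest of 17825 between HG+DKK2 and HG, and Ednra was 869th from the lowest.

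**Figure D4:**
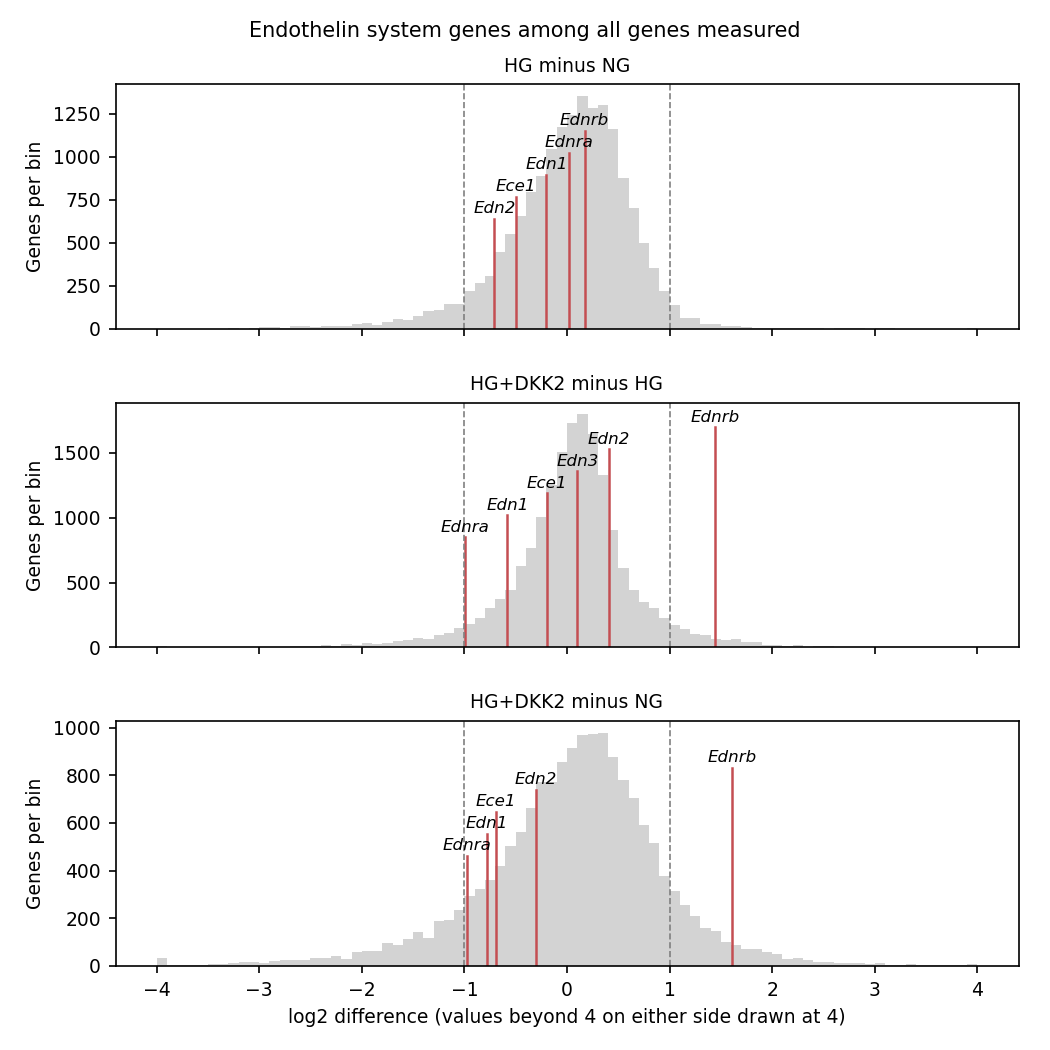
Histograms of log2 differences (x axis) against the number of genes per bin, for HG minus NG, HG+DKK2 minus HG and HG+DKK2 minus NG from the top, with red lines at the endothelin genes and dashed lines at 2-fold; the height of a red line has no meaning. Ednrb lies in the upper tail against HG, with 4.44% of genes further from 0, and Ednra near the 2-fold line with 9.97% further out.

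How far 2 probes of a gene agree on these arrays was measured over 4294 genes that had a second measured probe. Across genes the first and second probes' differences had a Pearson correlation of 0.64 between HG+DKK2 and HG, 0.22 between HG and NG and 0.42 between HG+DKK2 and NG; genes share the array and are not replicates. Of 138 genes whose first probe was at least 2-fold higher in HG+DKK2 than in HG, 80 (58.0%) had the second at least 2-fold higher too, and 7 had it below 0. Ednrb falls among the 80. In the glucose comparison 23 of 107 (21.5%) did so, and 32 had it below 0. Edn1, Edn2, Edn3, Ednra and Ece1 each have 1 probe, so no second probe stands behind their values.

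The genes whose pattern over the 3 arrays lay nearest to that of Ednrb, the member with the widest range (1.61), were found among 16653 genes by Euclidean distance over the differences HG minus NG and HG+DKK2 minus HG. They were Slc29a4, a plasma membrane monoamine transporter, at 0.0153, Lce1i, a late cornified envelope gene, at 0.0428, Slfn10-ps, a schlafen pseudogene, at 0.0524, Dnajc22, a J-domain protein gene, at 0.0545, and Trem2, a receptor of myeloid cells, at 0.0561. The 3 arrays give 2 such differences per gene, and the likeness says nothing of shared function or control.

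Because type B receptor is known from several cell types, marker lists are set beside it as measured facts. For these counts and those of the next paragraph, 5.08% of all genes were higher and 4.85% lower in HG+DKK2 than in HG. Of 9 macrophage and leukocyte markers measured, 6 were higher and 0 lower in HG+DKK2 than in HG (median 1.74), and their summed scaled signal was 9.45 times the 75th percentile in HG+DKK2, 3.27 times in HG and 2.73 times in NG. Of 5 measured melanocyte markers 0 were higher and Mlana was lower by -2.18. Their sum was 0.579, 2.21 and 3.23 times in that order, but Mlana alone made 0.456, 2.06 and 3.11 of it, so it describes that gene more than the class. Dct and Slc45a2 were not above background in NG, and Tyrp1 was not above background on any array. Of 7 Schwann cell markers 0 were higher and 2 lower, with sums of 1.08, 1.70 and 1.57, of which S100b alone made 0.688, 0.999 and 0.805. The part of these cell types in the Ednrb difference was not tested.

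The smooth muscle cell is the main site of type A receptor. Of 11 smooth muscle and pericyte markers measured, 0 were higher and 1, Acta2, was lower in HG+DKK2 than in HG (-1.67), with a median of -0.33. Their summed scaled signal was 34.5 times the 75th percentile in HG+DKK2, 55.4 in HG and 89.1 in NG. Acta2 alone made 6.60, 21.0 and 41.3 of it, so the sum follows that gene in large part. Of 12 fibroblast markers 0 were higher and 5 lower (median -0.69), with sums of 288, 412 and 441, of which Dcn alone made 144, 209 and 223. Of 14 endothelial markers 0 were higher and 5 lower (median -0.26), with sums of 8.13, 7.67 and 5.08, of which Kdr alone made 4.51, 3.84 and 3.04. However, 1 of 14 was lower with normexp and 1 of 7 with the stricter filter on dim probes (median 0.18). Over all genes 478 of 17827 were lower with normexp and 492 of 12165 with the stricter filter. Of 5 epithelial markers 2 were higher and 1 lower, with sums of 2.23, 0.380 and 0.357, of which Krt18 alone made 1.74, 0.120 and 0.0662. The part of these cell types in the Ednra and Edn1 differences was not tested.

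Peptide processing and clearance was read through 10 further genes, Ece2, Ecel1, Mme, Mmel1, Kel, Furin, Pcsk5, Pcsk7, Cma1 and Mmp2. With DKK2 against HG, 1 of 9 measured was higher and 1 lower, with a median of 0.08, the same as that of all genes at this rounding. For this list and the lists below, 5.08% of all genes were higher and 4.85% lower in that comparison. The shares were 2.67% and 5.72% for HG against NG, and 10.5% and 10.4% for HG+DKK2 against NG. Ece2, a second converting enzyme, had signals of 190.6 in HG+DKK2, 551.3 in HG and 411.3 in NG, and was lower by -1.55 against HG. Mmel1, a neprilysin-like protease gene, was higher by 1.59, with its other probe at 1.14, but by 0.51 with normexp, and it was not above background in NG. Mme encodes neprilysin, which degrades endothelin, and had a difference of -0.97, inside the rule, where its other probe gave -1.43. In HG against NG, Mmp2, a gelatinase that can cut big endothelin, was lower by -1.04, the 1 of 7 that passed in that comparison (median -0.56), though with normexp it was at -0.95. For HG+DKK2 against NG 0 of 7 were higher and 1, Ece2, was lower, at -2.12. With normexp 2 of 7 were lower there, beside 4005 of 16665 over all genes.

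Receptor signalling was read through 33 genes for G proteins, phospholipase C, IP3 receptors, protein kinase C, contraction, arrestins, RGS proteins and calcium entry. In this list 0 of 32 measured were higher and 1 was lower in HG+DKK2 than in HG, with a median of -0.05. That gene was Rock2, a kinase that promotes contraction, at -1.17 with its other probe at -0.88. Against NG 5 of 32 were lower and 0 higher. Rock2 was at -1.92 there, but its other probe was at -0.42. Plcb4, a phospholipase C isoform, was at -1.43, but its other probe was at -0.81. High glucose alone had 2 of 32 lower than NG, Prkce, a protein kinase C isoform, at -1.34 and Arhgef1, a guanine nucleotide exchange factor, at -1.33, for which another probe gave -0.06. Arhgef1 was also among the 5 lower in HG+DKK2 than in NG, at -1.03, but its other probe was at 0.29. Over all genes 10.4% were lower in HG+DKK2 than in NG and 5.72% were lower in HG than in NG. With normexp the list's counts of lower genes were 10 of 32 and 7 of 32 in that order. Over all genes the lower counts with normexp were 4005 of 16665 and 3932 of 16759, so most of that rise is shared by the whole array.

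Regulators of Edn1 transcription were read through 14 genes, all measured. Of these, 1 was higher and 1 lower in HG+DKK2 than in HG, with a median of 0.19. Jun, the AP-1 subunit known to drive Edn1, was higher by 1.06 (signals 63454 in HG+DKK2, 29934 in HG and 17605 in NG) and is named after its value was seen; the lowest of its values over the alternatives was 0.94. Klf2, a flow-induced repressor of Edn1, was lower by -1.25. Hif1a, the hypoxia factor subunit, was at 0.75 against HG and higher by 1.12 against NG, where 2 of the 14 were higher and 2 lower; its lowest value there over the alternatives was 0.99. Of the glucose differences, HG against NG, 2 of 14 were lower: Tgfb1, whose product induces Edn1, by -1.97, and Gata2, an endothelial factor for Edn1, by -1.17.

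**Figure D5:**
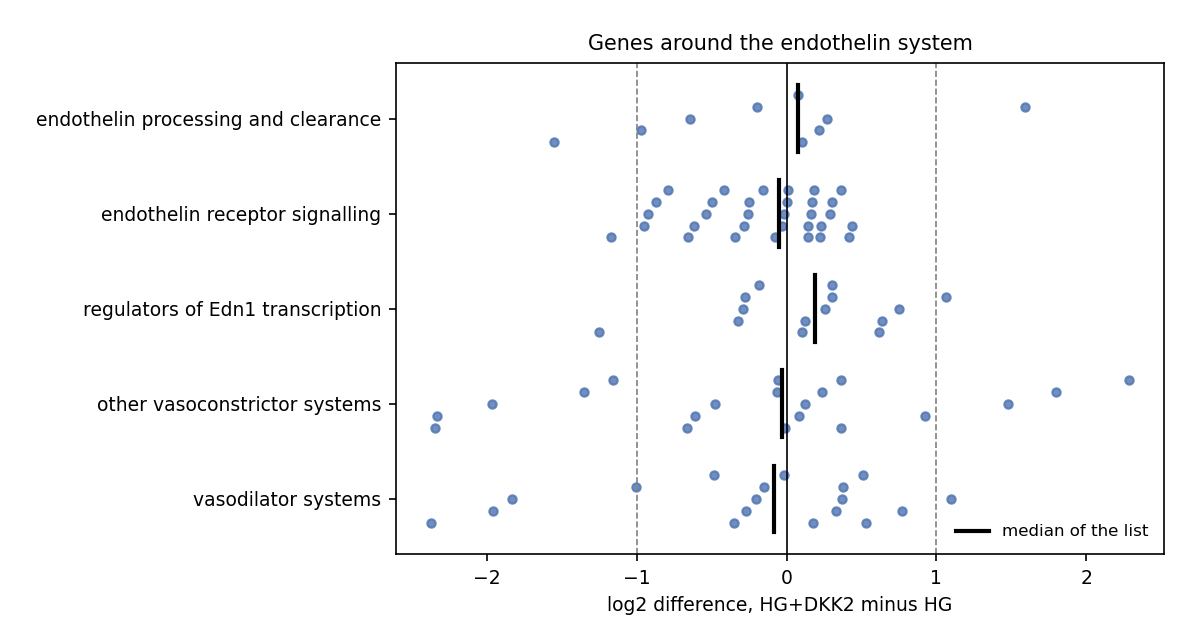
Log2 difference of HG+DKK2 minus HG (x axis) for every measured gene of the 5 pathway lists, 1 point per gene, with each list's median as a black bar and dashed lines at 2-fold. The list medians lie between -0.08 and 0.19, and in each list but receptor signalling, which has 1 gene past 2-fold on the lower side, genes pass 2-fold in both directions.

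Other vasoconstrictor systems held 21 genes. Among them 3 of 20 measured were higher and 5 lower in HG+DKK2 than in HG, beside 5.08% and 4.85% of all genes, with a median of -0.03. Npy1r, the neuropeptide Y receptor, had signals of 4785 in HG+DKK2, 965.6 in HG and 437.5 in NG, a difference of 2.29 against HG. Tbxa2r, the thromboxane receptor, was lower by -2.33, and Adra1d, an alpha-1 adrenergic receptor, by -1.16, with its other probe at -1.12 (-0.99 with normexp for the first). Agtr1a, the angiotensin II type 1 receptor, was lower by -2.35 and Avpr1a, the vasopressin receptor, by -1.97. The rest past 2-fold were Htr2b, a serotonin receptor, at 1.80, Tbxas1, thromboxane synthase, at 1.48 and Npy, neuropeptide Y itself, at -1.35. Agtr1a, Avpr1a, Htr2b, Tbxas1 and Npy are named after their values were seen. In HG 2 of 19 were lower than in NG, beside 5.72% of all genes. They were Ace, the angiotensin converting enzyme, at -2.95, with signals of 4497 in HG+DKK2, 6757 in HG and 26302 in NG, and Adra1d at -1.79, where its other probe gave -0.53. With normexp 5 of 19 were lower in HG than in NG, beside 3932 of 16759 over all genes. For HG+DKK2 against NG 3 of 19 were higher and 6 lower, beside 10.5% and 10.4% of all genes. With normexp 1 was higher and 8 lower, beside 938 and 4005 of 16665 over all genes.

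Vasodilator systems held 20 genes. Of 18 measured, 1 was higher and 4 lower in HG+DKK2 than in HG, beside 5.08% and 4.85% of all genes, with a median of -0.08. Vipr2, a receptor for vasoactive intestinal peptide, was higher by 1.095, with other probes from 0.86 to 1.05. Npr3, the natriuretic peptide clearance receptor, was lower by -2.37, Ramp2, the adrenomedullin receptor component, by -1.83, and Gucy1a1, a soluble guanylate cyclase subunit, by -1.96 (-0.67 with normexp). Prkg1, the cGMP-dependent kinase, lay at the rule with -1.002 and is named after its value was seen. With normexp the lower genes against HG were 2 of 18, beside 478 of 17827 over all genes. For HG+DKK2 against NG 5 of 17 were higher and 2 lower (median 0.53), beside 10.5% and 10.4% of all genes. With normexp 4 were higher and 4 lower, beside 938 and 4005 of 16665 over all genes. The median with normexp was -0.36, beside -0.25 over all genes. In HG 4 of 17 were higher than in NG and 0 lower, beside 2.67% and 5.72% of all genes. They were Nos3, the endothelial nitric oxide synthase, at 1.26 with its other probe at 1.04, Ptgir, the prostacyclin receptor, at 1.28, Calcrl, the calcitonin receptor-like receptor, at 1.30, and Gucy1a1 at 1.05, the first 3 named after their values were seen. With normexp the 4 were 0.19, 1.15, -1.18 and -1.004 in that order, so Ptgir alone of the 4 remained 2-fold apart in that direction.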

How the data were processed

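RNA of the 3 pooled samples was measured on 1 one-colour (Cy3) Agilent array per condition, and the titles give the groups. The scanner software, per the file headers, was Feature Extraction 11.5.1.1. The deposited values are a processed signal intensity per spot, linear and corrected for background, with flags for outliers and for spots well above background. Depth is not a measure here, and the number of arrays limits the precision. The deposited value table also holds intensity, unscaled and not logged: for 99.6% of probes it is within a fraction of 0.001 of the scanner's processed signal. Its column medians are 204.6 in HG+DKK2, 196.2 in HG and 101.8 in NG.

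Here 1377 control spots per array and 136, 115 and 110 outlier spots in HG+DKK2, HG and NG were left out. Values were log2 of the processed signal, averaged over the spots of a probe, minus the array's 75th percentile. A probe counted as well above background when 50% or more of its spots had that flag. A gene took its brightest such probe, and a difference was counted where both arrays were above background. Probes were named by accession from a RefSeq gene table of assembly GRCm38.p6, used for names only: 27508 probes matched 1 symbol, and 11921 matched none or several. The files give no gene name column, and the array design used build mm9. The members and lists were chosen with earlier results of these data known. Named genes are the 6 members, up to 4 per pathway list with the largest absolute difference in any comparison, and the 5 genes nearest to the member of widest range. Counting was tested on simulated data. Alternatives were normexp (offset 50, on the median signal), quantile normalization, median scaling, no filter and a stricter filter on dim probes, a gene's mean over its probes, the deposited values, and a 1.5-fold or 3-fold rule; outlier spots kept and the percentile over spots were added after seeing the data. Versions were scipy 1.17.1, pandas 2.3.3 and numpy 2.4.6 under Python 3.11.15, and limma 3.58.1 under R 4.3.3.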

Additional observations from a re-analysis of the deposited data

How the results depend on the processing

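No paired analysis was possible because each condition is 1 array. The count of endothelin genes at least 2-fold apart between HG+DKK2 and HG, 1, became 2 with quantile normalization, median scaling, the percentile over spots and a 1.5-fold rule, as Ednra passed, and 0 with the stricter filter and a 3-fold rule. Between HG+DKK2 and NG, 1 became 2 with normexp, quantile normalization, no filter and the percentile over spots, 4 with a 1.5-fold rule and 0 with the stricter filter. Between HG and NG, 0 became 2 with normexp, 1 with no filter and 1 with a 1.5-fold rule. The stricter filter needs a signal of 100 on all arrays, which Ednrb misses in NG at 81.5. Over all genes, the HG+DKK2 and HG count of 1770 became 983 with normexp, 2658 with no filter, 886 with the stricter filter, 4342 at 1.5-fold and 605 at 3-fold. The HG and NG count of 1408 became 4104, 3233, 801, 4617 and 428 in that order. The HG+DKK2 and NG count of 3471 became 4943, 5020, 2197, 7233 and 1322 in that order. Normexp moved the median of all genes from 0.09 to -0.26 for HG minus NG and from 0.12 to -0.25 for HG+DKK2 minus NG. Against NG with normexp, Edn1 and Edn2 passed 2-fold and Ednrb did not, Ednrb in HG minus NG was -0.74 against 0.17, and its second probe, Calcrl and Gucy1a1 changed sign. With no filter Edn3 counted too, at 1.17 in HG minus NG and 1.27 in HG+DKK2 minus NG, where normexp gave -1.75 and -1.66. Normexp added the same offset of 50 on each array, of which NG was the dimmer one. In HG minus NG, Calcrl, with a signal of 9.88 in NG, went from 1.30 to -1.18 with normexp. Ednra, with a signal of 1270 in NG, went from 0.02 to 0.04. The part of the offset in these changes was not tested. Probes well above background made up 83.9% in HG+DKK2, 84.7% in HG and 76.6% in NG, so fewer could be compared with NG.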
